A study of Homo sapiens with 15 samples.

Results

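GATA2 binding was compared between TF-1 cells with an inducible vector for wild-type (WT) RAD21 and TF-1 cells with an inducible vector for RAD21 Q592* (a premature stop codon in place of a glutamine codon). TF-1 is a human erythroleukemia cell line. Both groups were treated with doxycycline for 6 days before ChIP-seq with an antibody to GATA2, and both were grown with cytokines, per the labels' protocols. Whether each line is a single clone, and the level of the cells' own RAD21 beside the induced one, are not stated in the labels. The members are the peaks of the WT and Q592* GATA2 lists on chromosomes 1 to 22: 38063 in WT and 57483 in Q592*, 95546 in all, while the 6 lists of the series for GATA2, RUNX1 and SMC3 hold 198298 peaks with X and Y included. Each group has 2 libraries, 4 of the 15 in the series, and each group is represented by 1 list pooled over them. No spread between libraries can therefore be given, and no test between the lines was possible. Every interval below is a 95% interval that covers counting error over peaks only.

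GATA2 is a zinc finger transcription factor that binds the DNA letters GATA, mostly at enhancers, and is needed for blood stem and progenitor cells. Its binding sites often lie in groups and are often shared with RUNX1, another transcription factor of these cells. RAD21 closes the ring of cohesin, the complex that holds sister chromatids together and extrudes chromatin loops between enhancers and promoters, and SMC3 is another of its subunits. Truncating mutations of RAD21 are known from acute myeloid leukemia. The study asks how binding of these proteins differs when cells express the truncated form. Coordinates are those of the hg19 build, counted from 1. An hg19 sequence and annotation were not used here, so no motif and no gene is assigned to a site.

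Most WT GATA2 sites were also called in Q592* cells, and Q592* cells had many sites besides. Peaks of the lists that overlapped by at least 1 bp were joined into 62364 regions. Kept regions, with a peak in both lists, numbered 32456 (52.0%). Gained regions, called in Q592* alone, numbered 24915 (40.0%), and lost regions, called in WT alone, 4993 (8.01%). With both lists cut to peaks with a −log10 q of at least 10 before joining, 17061 regions were gained and 1390 lost. These counts are not strong members of the gained and lost regions above. A kept site whose WT peak fell under the cut counts there as gained, and a kept site whose Q592* peak did so counts as lost. With the Q592* list trimmed to its 38063 peaks of highest −log10 q, there were 9948 gained and 9398 lost regions, but lists of equal length give nearly equal numbers by construction. The gain was spread over all 22 autosomes, with 63.7 (chromosome 21) to 98.0 (chromosome 19) gained regions for every 100 kept ones. The loss was more uneven, with 5.41 (chromosome 17) to 43.8 (chromosome 13) lost regions for every 100 kept ones and a median of 13.3 over the chromosomes. A segment of chromosome 13 from 75 to 100 Mb, chosen after seeing the data, held 546 of the lost regions (10.9%). Lost regions made up 33.2% of the regions there, beside 672 kept and 428 gained ones. Without this segment 4447 lost regions remained, 7.32% of the regions elsewhere.

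The ChIP depth behind the lists was close, while WT had the larger background pool. The number of ChIP reads at each summit was recovered from the deposited fold enrichment and −log10 p, and it came out whole, to within 0.05 of a read, for 38060 of the 38063 WT peaks and for all Q592* peaks. The totals recovered were 107.5 M (M, 1000000) ChIP reads over 95.3 M background reads for WT, and 106.0 M over 78.0 M for Q592*. Summits held 19 to 848 reads in WT, with a median of 47, and 22 to 942 in Q592*, with a median of 62. Background was recovered per peak as well and is given as a multiple of the value that applied genome-wide.

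Where the lists met, they usually met peak to peak. Of the kept regions 31752 held exactly 1 peak of each list, and these are called pairs. In another 583 regions 2 WT peaks and in 9 regions 3 WT peaks lay under 1 Q592* peak, while 99 regions held 2 Q592* peaks under 1 WT peak. Where 1 Q592* peak ran over several WT peaks, neighbouring WT summits lay a median of 443 bp apart (432 to 461 bp, lowest 200 and highest 1152 bp), and the Q592* peak across them had a median width of 854 bp. RUNX1 was called at 49.8% of these sites in Q592* and SMC3 at 53.0% in WT, compared with 28.7 and 28.5% of the pairs whose summits lay within 200 bp. RUNX1 of WT (36.8 and 20.2%) and SMC3 of Q592* (31.8 and 15.6%) went the same way. These sites were also stronger in Q592*, with a median −log10 q of 57.9 compared with 30.6. Their Q592* peaks were wider too, at 854 bp compared with 354 bp, which leaves more bases for an overlap. The part of strength and of width in these shares was not tested. The smallest distance between neighbouring peaks was 72 bp in the WT list and 76 bp in the Q592* list, so nearer peaks were called as 1. Few sites lay close to the limit of 1 bp. Pairs overlapped by a median of 251 bp and by 7 bp at least, and 59 of them (0.19%) overlapped by 50 bp or less. Just outside the rule, 31 lost regions (0.62%) lay within 50 bp of a gained region. A much stricter rule, an overlap of 50% of both peaks, gave 9155 lost regions.

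GATA2 peaks were wider in Q592* at the same sites. In the pairs the median width was 268 bp in WT (266 to 270 bp) and 356 bp in Q592* (353 to 358 bp). The Q592* peak was the wider one in 25959 of 31752 pairs (81.8%) and the narrower one in 5701 (18.0%), and the median difference within a pair was 75 bp (74 to 77 bp). Both sides took part alike: the left edge lay a median of 37 bp further out in Q592*, and the right edge also 37 bp. The Q592* peak spanned the whole WT peak in 60.4% of the pairs, and the WT peak spanned the Q592* peak in 6.52%. The difference was found at weak and strong sites, rising from a median of 66 bp for WT peaks with a −log10 q under 5 to 93 bp for those at 100 and over. On single chromosomes the median lay between 65 bp (chromosome 13) and 91 bp (chromosome 19).

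Summit reads moved with this width. The Q592* summit held more reads in 98.2% of the pairs, with a median of 89 reads compared with 52 in WT. Called width rose with summit reads in both lists, so pairs with nearly equal reads were looked at separately. In the 786 pairs whose reads differed by at most 0.1 on the log2 scale, the median width was 224 bp in WT (218 to 231 bp) and 236 bp in Q592* (229 to 242 bp). The median difference there was 14 bp (10 to 19 bp), and the Q592* peak was wider in 58.7% and narrower in 40.7%. The narrowest peak, taken here as the fragment length of the call, was 150 bp in WT and 157 bp in Q592*. The part of read number in the width difference of the other pairs was not tested.

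Gained and lost sites were narrow. Gained peaks had a median width of 216 bp (215 to 217 bp) compared with 359 bp for kept peaks of the same Q592* list. Lost peaks had 189 bp (187 to 191 bp) compared with 269 bp for kept WT peaks. Peaks of 500 bp or more made up 23.5% of the kept Q592* peaks and 1.32% of the gained ones, and 11.0% of the kept WT peaks and 0.66% of the lost ones. At the other end, 10.4% of the lost peaks and 4.71% of the gained peaks had the narrowest width of their list.

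**Figure D1:**
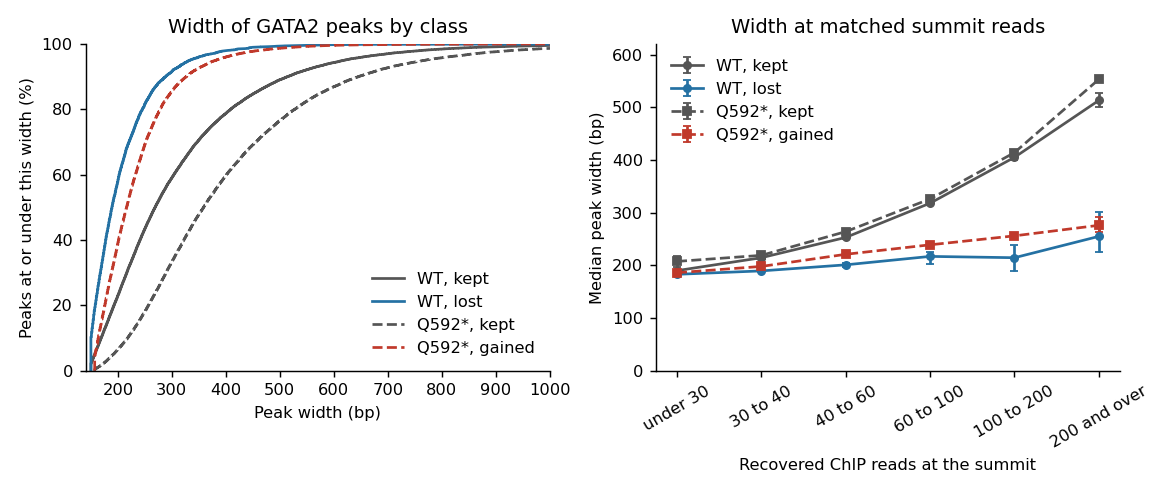
Left, the percentage of GATA2 peaks (y axis) at or under each width in bp (x axis), for kept peaks of both lists, gained Q592* peaks and lost WT peaks. Right, the median width in bp against the recovered ChIP reads at the summit, where bars are 95% intervals over peaks. Kept peaks widened with reads along nearly the same line in both lists, to 513 and 553 bp at 200 reads and over, whereas gained and lost peaks of the same reads had 276 bp (n = 79) and 255 bp (n = 38), over local backgrounds of 8.41 and 28.7 times the genome-wide value.

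Gained and lost peaks were also narrower than kept peaks with a like number of summit reads. Among Q592* peaks with 60 to 100 reads at the summit, 4705 gained peaks had a median width of 239 bp (237 to 241 bp) and 10020 kept peaks 326 bp (324 to 329 bp). With 100 to 200 reads the medians were 256 bp for 1080 gained and 414 bp for 9261 kept peaks. Lost WT peaks with 40 to 60 reads had a median of 201 bp (197 to 205 bp), and kept WT peaks 253 bp (250 to 254 bp). Local background differed with the class in these bins: at 60 to 100 reads it was 2.70 times the genome-wide value for gained peaks and 1.85 times for kept ones. With peaks of a local background under 1.5 times only, the gained peaks of that bin had 297 bp (n = 470) and the kept ones 361 bp (n = 3054), a smaller gap. Lost and kept WT peaks with 40 to 60 reads then had 224 bp (n = 83) and 281 bp (n = 4226). A wide peak also has more bases with which to meet a peak of the other list. When sites were matched by summits within 200 bp in place of overlap, the medians at 60 to 100 reads were 241 bp for gained and 325 bp for kept Q592* peaks. In WT at 60 to 100 reads the medians under that rule were 298 bp (267 to 348 bp, n = 257) for lost and 317 bp for kept peaks. Under the overlap rule they were 217 bp (n = 94) and 318 bp. The rule on summits also counts overlapping WT peaks with summits over 200 bp from those of Q592* as lost. In pairs such WT peaks had a median width of 395 bp, compared with 268 bp in the other pairs. The reason for the smaller gap was not tested.

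The points of strongest GATA2 binding mostly lay close together in kept pairs. Requiring an overlap bounds the distance between summits, because a peak that moved clear of its old place counts as a lost and a gained region. The summits of a pair lay a median of 20 bp apart (19 to 20 bp), which is far less than the width of the peak. They were within 10 bp in 30.4% of the pairs, within 50 bp in 82.9% and within 100 bp in 95.3%, and 491 pairs had the same summit base. Neither direction prevailed, with the Q592* summit at the higher coordinate in 49.8% and at the lower one in 48.7%. Over the chromosomes the median shift ranged from 16 bp (chromosome 16) to 22 bp (chromosome 13).

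Summits were placed more closely the stronger the site. WT peaks with a −log10 q under 5 had a median shift of 39 bp, and 60% of them lay within 50 bp. At 20 to 50 the median was 16 bp, and at 100 and over it was 11 bp with 97.2% within 50 bp. The shift varied less with width: WT peaks under 200 bp wide had a median shift of 23 bp and those of 500 bp and over had 17 bp, with 90th percentiles of 71 and 69.3 bp. Pairs with matched reads had a median shift of 29 bp.

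**Figure D2:**
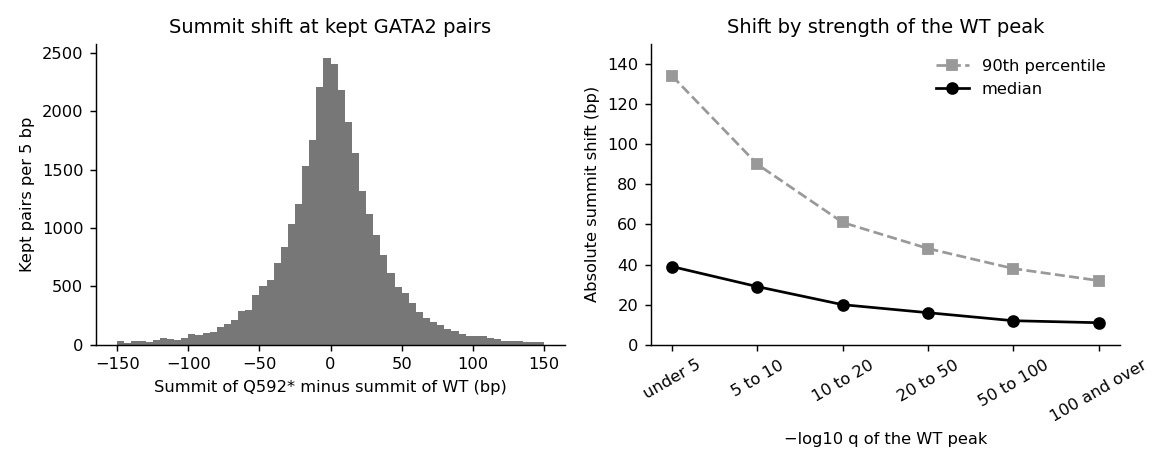
Left, the number of kept GATA2 pairs per 5 bp (y axis) by the signed distance from the WT to the Q592* summit in bp (x axis), drawn up to 150 bp either way. Right, the median and the 90th percentile of the absolute shift in bp by the −log10 q of the WT peak; the median falls from 39 bp in the weakest bin to 11 bp in the strongest.

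A small set of pairs had summits further apart. In 441 pairs (1.39%) the distance was over 200 bp. These had wider peaks, with medians of 395 bp in WT and 513 bp in Q592*, and weaker ones, with a median −log10 q of 8.01 in WT and 14.5 in Q592* compared with 14.6 and 30.6 in the other pairs. RUNX1 was called at 18.4% of them in WT and 21.3% in Q592*, compared with 20.2 and 28.7% of the other pairs. SMC3 was called at 30.8% in WT and 15.0% in Q592*, compared with 28.5 and 15.6%. Among kept pairs, 6510 were in the upper 25% by strength in both lists. The largest shift among them was on chromosome 6, where the WT peak ran from 149449644 to 149451156 and the Q592* peak from 149449569 to 149451039. The Q592* summit there lay 766 bp toward the lower coordinates, at 149449772, with 315 reads, and the WT summit at 149450538 had 180. The peaks were 1513 and 1471 bp wide, and RUNX1 and SMC3 were called there in both lines. The next was on chromosome 14, with a WT peak from 92463096 to 92464179 (75 reads) and a Q592* peak from 92462936 to 92464476 (182 reads). Its Q592* summit at 92463409 lay 648 bp below the WT summit at 92464057, and SMC3 but not RUNX1 was called there in both lines. At both sites the peaks themselves overlapped along most of their length.

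The widest peaks were kept sites. The widest WT peak covered 1870 bp of chromosome 11 from 114086260 to 114088129, and the Q592* peak there covered 1793 bp, with the summits at 114087682 in WT and 114087697 in Q592*. Its summit held 273 reads in WT and 574 in Q592*. The widest Q592* peak covered 2209 bp of chromosome 6 from 17869311 to 17871519, with 259 reads at its summit. The strongest WT peak beneath it was 433 bp wide, from 17869820 to 17870252, with 142 reads. RUNX1 and SMC3 were called at both sites in both lines.

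The 3 strongest gained sites lay 13059 to 31993 bp from the nearest kept region, where the median over all gained regions was 13712 bp. The first, on chromosome 1 from 156864801 to 156865326, had 271 reads at its summit over a local background of 3.43 times the genome-wide value, with no RUNX1 or SMC3 peak in either line. The second, on chromosome 6 from 134496112 to 134496386, had 272 reads over 4.26 times and an SMC3 peak in Q592* only. The third, on chromosome 7 from 5631124 to 5631458, had 234 reads over 2.94 times and a RUNX1 peak in both lines. Their widths of 526, 275 and 335 bp lay under the median of 553 bp for kept Q592* peaks with 200 reads and over.

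The 3 strongest lost sites lay in places of high background, unlike most lost sites. The first and second were on chromosome 16, from 46392970 to 46393389 and from 46407585 to 46407840, with 389 and 378 reads over local backgrounds of 26.1 and 25.3 times the genome-wide value. The third, on chromosome 4 from 49512229 to 49512677, had 220 reads over 11.0 times. RUNX1 and SMC3 were called at all 3 in WT, and RUNX1 at the first of them in Q592* too. A local background of 3 times or more was found at 272 of the 4993 lost peaks (5.45%), compared with 13.8% of the kept WT peaks. In the Q592* list it was found at 13.4% of the gained and 20.6% of the kept peaks. Among the 272 lost sites, 20.6% carried both RUNX1 and SMC3 in WT, compared with 1.72% of the other 4721. Kept regions of high background had a near share, with 18.5% (1441 of 7780) carrying both in WT. The other kept regions had 10.2%, so the contrast was much smaller among kept regions. For this count a kept region took the higher background of the lists, whereas a lost one has that of WT only.

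GATA2 summits lay closer together in the longer Q592* list. Neighbouring summits were a median of 19464 bp apart in the WT list (19053 to 19921 bp) and 14620 bp in the Q592* list (14392 to 14878 bp), and 6.61% and 6.42% of them were within 1000 bp. Trimmed to the 38063 peaks with the highest −log10 q, the Q592* list had a median spacing of 23254 bp, wider than that of WT. Of the 38041 intervals between neighbouring WT summits, 14438 (38.0%) held a gained region. Intervals of 1000 to 10000 bp held 34.5 gained regions per Mb, those of 10000 to 100000 bp held 18.3, and those of 100000 bp and over held 5.05. Short intervals of under 1000 bp held 17 gained regions in all, or 10.8 per Mb. A gained region by definition overlaps no WT peak, which leaves little room for it in so short an interval. The part of this limit in the densities was not tested.

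Gained regions were further from kept regions than kept regions were from each other, and lost regions were nearer. A gained region lay a median of 13712 bp from the nearest kept region (13392 to 14070 bp). A kept region lay 10500 bp from the next kept one (10288 to 10718 bp), and a lost region 8468 bp (8012 to 8922 bp). Within 1000 bp of a kept region were 6.83% of the gained, 6.63% of the kept and 12.1% of the lost regions. The order was the same among regions with a local background under 3 times, at 17843, 13994 and 11881 bp. Without the segment of chromosome 13 the medians were 13791, 10609 and 8600 bp. Of the 4993 lost regions, 371 (7.43%) had a gained region within 1000 bp of their edges, and the median distance between edges was 16517 bp. Counted between summits, 5.93% of the lost regions had a gained region within 1000 bp. That is close to the 5.99% of gained regions with another gained region so near.

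**Figure D3:**
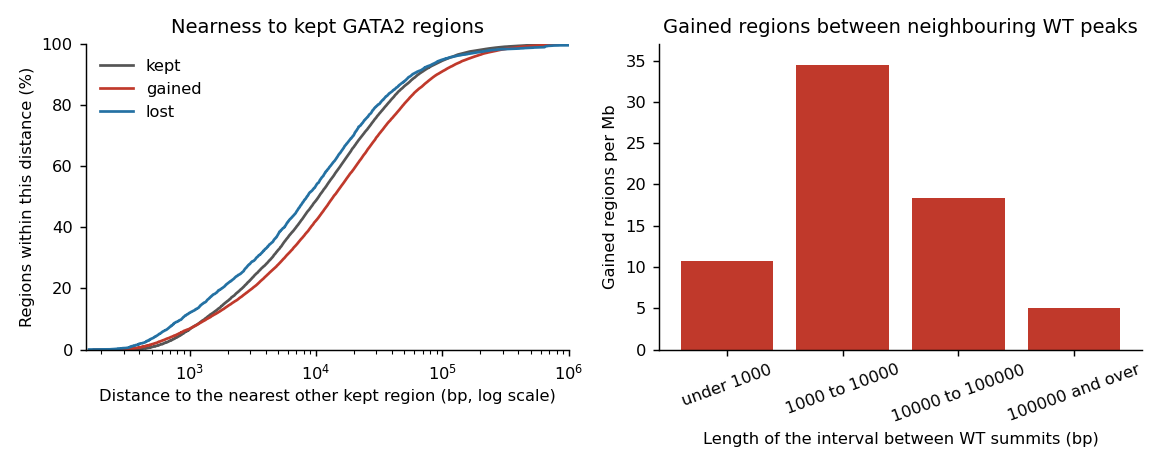
Left, the percentage of kept, gained and lost GATA2 regions (y axis) within each distance of the nearest other kept region (x axis, bp, log scale); lost regions run left of kept and gained ones up to near 100000 bp, with medians of 8468, 10500 and 13712 bp. Right, the number of gained regions per Mb in the intervals between neighbouring WT summits, by the length of the interval in bp, highest at 34.5 for 1000 to 10000 bp. The shortest intervals leave little room for a region that overlaps no WT peak.

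GATA2 sites lay in clusters in both lines. A cluster was taken as 3 or more peaks with neighbouring summits at most 10000 bp apart. Of the WT peaks 31.1% (30.6 to 31.6%) lay in 2947 clusters, and of the Q592* peaks 38.1% (37.7 to 38.5%) in 5324. Peaks with no neighbour within 10000 bp made up 44.5% in WT and 37.9% in Q592*. The direction turned with list length: the Q592* list trimmed to the length of WT had 24.7% of its peaks in 2523 clusters. Clusters of 20 or more peaks numbered 5 in WT and 2 in Q592*. Clustered and lone peaks were of similar strength within a list, with medians of 48 and 47 reads in WT and 65 and 59 in Q592*.

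WT peaks in clusters were kept a little less than lone ones. Of the clustered WT peaks 82.4% (81.7 to 83.1%) were kept, compared with 89.5% (89.0 to 89.9%) of those with no neighbour within 10000 bp and 86.9% of all WT peaks. All peaks were kept in 1691 of the 2947 WT clusters (57.4%), and none in 36 (1.22%). In Q592* the order was the other way, with 60.3% of the clustered and 52.3% of the lone peaks kept. At least 1 gained summit fell within the span of 889 WT clusters (30.2%). These spans held 1230 gained summits, 35.6 per Mb. That is close to the 34.5 per Mb in all WT intervals of 1000 to 10000 bp, and cluster spans hold no longer interval. Over WT intervals of every length it was 8.96 per Mb. In the joined lists, 43.7% of the kept (43.1 to 44.2%), 37.3% of the gained (36.7 to 37.9%) and 55.0% of the lost regions (53.6 to 56.4%) were in a cluster. The order was the same without regions of a local background of 3 times or more (36.9, 31.5 and 47.0%) and without the segment of chromosome 13 (43.2, 36.9 and 53.1%).

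**Figure D4:**
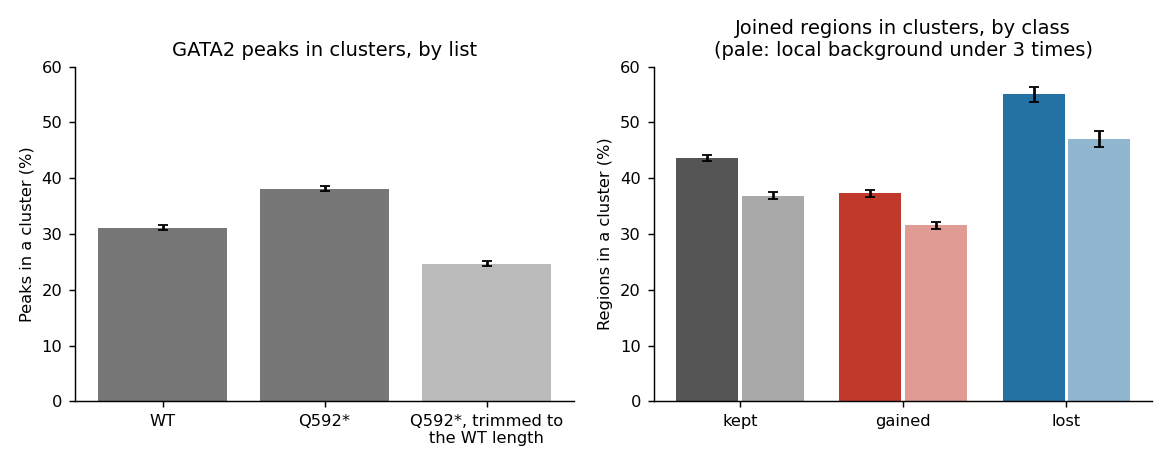
Left, the percentage of GATA2 peaks in a cluster for the WT list, the Q592* list and the Q592* list trimmed to the WT length (31.1, 38.1 and 24.7%). Right, the percentage of joined regions in a cluster by class, for all regions (full colour) and for those with a local background under 3 times the genome-wide value (pale); bars start at 0, error bars are 95% Wilson intervals over peaks or regions, and lost regions are highest in both sets.

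Most clusters mixed old and new sites. Of the 6058 clusters of joined regions, 3369 (55.6%) held kept and gained regions with none lost, and 1139 (18.8%) held all 3 classes. Clusters of kept regions only numbered 660 (10.9%), of gained regions only 243 (4.01%) and of lost regions only 27 (0.45%). Over all joined regions 52.0% were kept, 40.0% gained and 8.01% lost. How much mixing these shares alone would give was not tested. The largest clusters of gained regions only were small. They were 6 regions on chromosome 5 from 149442436 to 149468922, with folds of 2.96 to 5.75, and 5 on chromosome 12 from 26574201 to 26587513, with folds of 4.07 to 5.81. These and the lost-only clusters named next were chosen after their values had been seen.

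The cluster with the most Q592* peaks lay on chromosome 1 from 198598714 to 198651662. Its 23 peaks were 13 kept and 10 gained sites with none lost, at folds of 2.97 to 29.2, and the median local background was 1.08 times the genome-wide value. RUNX1 was called at 4 of these regions in WT and at 3 in Q592*, and SMC3 at 7 and 4. The joined cluster with the most gained regions was also on chromosome 1, from 145074020 to 145159259, and held 12 gained, 10 kept and 9 lost regions. Its gained peaks had folds of 2.11 to 5.90 and a median local background of 2.31 times.

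The cluster with the most WT peaks was at the same time that with the most lost regions. It lay on chromosome 16 from 46385859 to 46435622 and held 49 regions, of which 17 were kept, 32 lost and none gained. Its WT peaks had folds of 1.66 to 5.33 and a median local background of 13.4 times the genome-wide value. RUNX1 was called at 43 and SMC3 at 38 of the 49 in WT, and at 18 and 6 in Q592*. The largest clusters of lost regions only resembled it in part. On chromosome 10 from 42378480 to 42396981 there were 16, with a median background of 20.7 times and RUNX1 called at 12 and SMC3 at 10 in WT. On chromosome 21 there were 15 from 10698086 to 10724224, with a background of 3.59 times, and 10 from 10762071 to 10797111, with 1.13 times. The median background was 3 times or more in 8 of the 27 lost-only clusters. What the high background has to do with the loss was not tested.

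**Figure D5:**
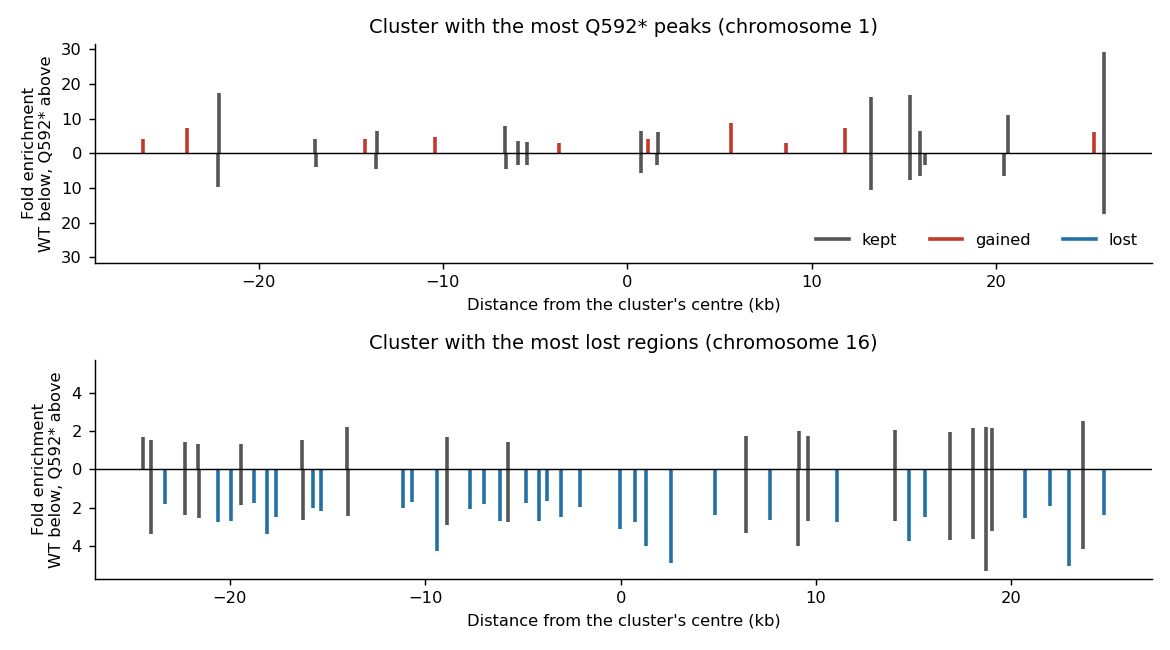
GATA2 peaks of 2 clusters by the distance of the summit from the cluster's centre in kb (x axis), with the deposited fold enrichment of each peak as the length of its line, Q592* above and WT below the axis. Top, the chromosome 1 cluster with 13 kept and 10 gained sites; bottom, the chromosome 16 cluster with 17 kept and 32 lost regions, where folds stay under 6. Folds of the 2 lists rest on different background pools.

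RUNX1 and cohesin at these sites were readouts that the choice of sites did not use. In Q592*, RUNX1 was called at 29.0% of the kept and 7.30% of the gained regions (6.99 to 7.63%). In WT, RUNX1 was called at 20.6% of the kept and 6.01% of the lost regions, with shares at like WT strength given below. Strength went along with this: RUNX1 of Q592* was called at 6.52% of the kept regions with a Q592* −log10 q under 5 and at 72.0% of those at 100 and over. With the gained regions weighted to the strengths of the kept ones, their share was 22.7%, of which 9.41 points rest on the 7 gained regions at 100 and over, 4 of them with RUNX1.

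At like strength, the share with RUNX1 of Q592* was lower at gained than at kept regions in each of 5 bins of −log10 q, a difference between sites of the same list that has no library replicate. Under 5 the shares were 3.82% (3.25 to 4.48%) for gained and 6.52% (5.03 to 8.41%) for kept regions, and between 5 and 10 they were 4.65 and 7.07%. Between 10 and 20 they were nearer, at 9.36% (8.73 to 10.0%) and 10.7% (10.04 to 11.5%), and between 20 and 50 they were 18.2% (16.6 to 19.8%) and 21.8% (21.0 to 22.6%). Between 50 and 100 they were 28.7% (21.9 to 36.6%) of 143 gained and 41.0% (39.7 to 42.3%) of the kept regions. The gap was wider for RUNX1 of WT at the same places, with 5.09% (4.25 to 6.10%) of the gained and 14.3% (13.6 to 15.0%) of the kept regions between 20 and 50. Kept Q592* peaks were also wider at like strength, with medians of 348 bp compared with 273 bp for gained ones between 20 and 50. A wider region has more bases with which to meet a peak of another target. The part of width in these shares, and in those of SMC3 below, was not tested.

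The shares with cohesin showed a gap in WT and little in Q592*, and this difference between the lines was not tested. For SMC3 of Q592* the intervals of gained and kept regions overlapped in each of these 5 bins, for example at 9.27% (8.12 to 10.6%) and 10.1% (9.54 to 10.7%) between 20 and 50. SMC3 of WT was called in that bin at 9.82% of the gained (8.64 to 11.1%) and 22.2% of the kept regions (21.4 to 23.0%). Kept regions were called in WT by the rule, so the lists of the WT line and this choice share cells and chromatin. At lost regions RUNX1 was called at 6.01% in WT and 2.16% in Q592*, whereas at kept regions the shares were 20.6 and 29.0%. SMC3 was called at 12.1% of the lost regions in WT and 3.40% in Q592*, and at kept regions it was also lower in Q592*, at 16% compared with 29.2%. At like WT strength the shares of lost and kept regions with SMC3 of WT were 9.04 and 13.8% under 5, 12.0 and 14.1% between 5 and 10, and 20.3 and 20.2% between 10 and 20. Between 20 and 50 SMC3 was called at 33 of 40 lost regions (82.5%), where the median local background was 7.37 times the genome-wide value, and at 37.9% of the kept ones. In the same order of bins, RUNX1 of WT was called at 3.62, 5.17, 14.8 and 85.0% of the lost regions. At kept regions its shares were 6.46, 7.44, 12.3 and 27.0%. Between 10 and 20 its intervals for lost (11.7 to 18.5%) and kept regions (11.6 to 12.9%) overlapped. The RUNX1 list of Q592* rests on 1 library by its labels and that of WT on 2. A shorter list can lower such shares at every class of site. The part of list length and depth of RUNX1 and SMC3 in the differences between the lines was not tested.

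Where peaks of GATA2 and RUNX1 overlapped, their summits were mostly close, with 59.7 to 66.8% within 50 bp. Requiring an overlap bounds this distance, and single sites reached 1072 bp. The median distance was 37 bp at kept sites in WT (36 to 38 bp) and 33 bp in Q592* (32 to 33 bp). At gained sites in Q592* it was 35 bp (32 to 38 bp), and at lost sites in WT 32 bp (26 to 42 bp). SMC3 summits were further from GATA2, at medians of 57 bp in WT and 60 bp in Q592* for kept sites, 62 bp for gained and 60 bp for lost ones. The intervals of gained and kept sites in Q592* overlapped for both targets.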

How the data were processed

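ChIP-seq peaks of GATA2, RUNX1 and SMC3 were deposited as 6 lists, 1 per line and target, which the peak names mark as merged over the libraries of a group. Per the submitters' processing notes, Bowtie2, Picard and MACS2 were used with build hg19; their settings are not stated there. Each peak's deposited fold was read as a ratio, ChIP pileup over local background at the summit, and its deposited −log10 p and −log10 q as values for that summit. The deposited score, 10 times the −log10 q, was not used. The lowest deposited −log10 q was 2.01 in WT and 2.00 in Q592*, so weaker sites cannot be seen.

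GATA2 lists were restricted to chromosomes 1 to 22 and joined by an overlap of at least 1 bp. Width is end minus start. Summit reads and local background were solved from each fold and −log10 p. The totals further assume an effective genome of 2700000000 bp and a fragment as long as the narrowest peak. Shares carry Wilson intervals and medians order-statistic intervals, at 95%. Regions named by position are the 3 strongest gained and lost regions, the 2 largest summit shifts among strong pairs, the widest peak and largest cluster of each list, and the joined clusters with the most gained and most lost regions. Another 3 lost-only and 2 gained-only clusters were chosen after their values were seen. Members, rules and alternatives were chosen with earlier results of these data known. Gene lists and motifs had been planned, but they need hg19 annotation or sequence, which were not used here. Functions were tested on simulated data. Computation used pandas 2.3.3 and numpy 2.4.6 in Python 3.11.15, with intervals from scipy 1.17.1 and plots from matplotlib 3.10.9.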

Additional observations from a re-analysis of the deposited data

How the results depend on the processing

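No paired analysis was possible because each group has 1 pooled list without replicate numbers, and for the same reason no library could be left out. Of 93 alternative values 35 stayed within 1.5 times the reported count or within the interval of the reported value, among them all 13 with X and Y included and all 3 region counts with summits within 200 bp. Weak sites limit every count. The 2 alternatives on local background and on chromosome 13 were chosen after seeing the data. The cause of the changes below was not tested, apart from the trimming, which by its construction shortens the Q592* list.

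With both lists cut to a −log10 q of at least 10 before joining, there were 20982 kept and 1390 lost regions. Median widths were 318 (kept, WT), 231.5 (lost), 413 (kept, Q592*) and 265 bp (gained), the summit shift was 16 bp and the width difference 83 bp. Median spacing was 36440 bp in WT and 23239 bp in Q592*, and gained and lost regions lay 22084 and 16863 bp from a kept one. In clusters were 16% of the WT and 24.7% of the Q592* peaks, and 27.7% of the kept, 23.0% of the gained and 30.4% of the lost regions. RUNX1 of Q592* was at 38.4% of the kept and 12.9% of the gained regions, and SMC3 of WT at 37.2% of the kept and 22.5% of the lost ones.

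Equal list lengths gave 9948 gained and 9398 lost regions, a Q592* spacing of 23254 bp, distances to a kept region of 17669.5 (gained) and 11771 bp (lost), and 24.7% of the Q592* peaks, 33.8% of the kept, 25.2% of the gained and 42.1% of the lost regions in clusters. A reciprocal overlap of 50% gave 9155 lost regions and a width difference of 68 bp. Linking at 5000 bp put 16.3% (WT) and 19.9% (Q592*) of the peaks and 23.7% (kept), 19.9% (gained) and 34.1% (lost) of the regions in clusters, and linking at 25000 bp put 58.0, 68.2, 73.6, 66.2 and 82.2% there. Without regions of a local background of 3 times or more, spacing was 24824 bp (WT) and 18420 bp (Q592*), distances to a kept region were 17843 (gained) and 11881 bp (lost), and 24.8% (WT) and 31.1% (Q592*) of the peaks and 36.9, 31.5 and 47.0% of the kept, gained and lost regions were in clusters. Without chromosome 13 from 75 to 100 Mb, WT spacing was 20107 bp, and 30.2% of the WT peaks and 53.1% of the lost regions were in clusters. With strength bins weighted as in kept regions, lost and gained peaks had median widths of 216 and 273 bp, RUNX1 of Q592* was at 22.7% of the gained and SMC3 of WT at 33.8% of the lost regions. The latter turned the direction against kept regions (29.2%), but 22.5 of its points rest on the 40 lost regions with a −log10 q of 20 to 50, and 9.41 points of the former on 7 gained regions. For the lost ones these weights cover the bins of 85.7% of the kept WT peaks and 85.5% of the kept regions. Lost regions were the most and gained ones the least clustered wherever these settings gave all 3 classes. At a −log10 q of at least 10, however, the intervals of lost (28.1 to 32.9%) and kept regions (27.1 to 28.3%) overlapped.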
